A study of Mus musculus with 6 samples.

Results

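The Argonaute (Ago) footprints of Mbnl1, Rod1, Son and Clk1, which encode regulators of pre-mRNA splicing, and of Zfp207, a zinc finger gene, are described here in mouse macrophages without and with APOBEC1. A footprint is a short stretch of mRNA around a peak of Ago cross-linking. Every footprint of the deposited table that lay on these genes, on the gene's own strand, was taken: 37 of 6270 footprints, with 9 on Mbnl1, 16 on Rod1 (named Ptbp3 in newer annotation) and 4 each on Son, Clk1 and Zfp207. The genes were selected on their occupancy in this table as well as on their function, so that their KO and WT values are given as a description.

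The study applied Ago HITS-CLIP, the immunoprecipitation and sequencing of RNA cross-linked to Ago, to macrophages grown from bone marrow. The KO libraries (3) came from Apobec1-/- mice and the WT libraries (3) from their wild-type littermates, all C57BL/6 and aged 6 to 12 weeks. All cells were cultured with 20 ng/mL M-CSF and matured for 7 days, and Ago was recovered with the antibody 2A8. The sources used here do not state which part of Apobec1 is removed in the KO, and the deletion was not described as limited to a cell type. Apobec1 itself had 3 footprints, summing to an occupancy of 0.312 in KO and 0.372 in WT. Because the removed part is not given, these values do not check the genotype labels.

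The measured value is the Ago occupancy, the authors' ratio of footprint signal to the RNA-Seq expression of its transcript, with 1 combined value per genotype. A library count of 0 to 3 per genotype tells how many libraries held the footprint. The table lists only footprints held by at least 2 libraries of at least 1 genotype. There are no per-library values, so no difference below has a replicate error or a test, and the depth of the libraries is unknown. A difference of at least 2-fold is used as a fixed mark of size. Of the 9 macrophage markers looked up, 6 had a footprint (Emr1, Itgam, Csf1r, Lyz2, Fcgr1 and Cd14), with a summed occupancy of 3.87 in KO and 2.9 in WT, and no marker of T cells, B cells, neutrophils, fibroblasts or dendritic cells had any.

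Ago proteins carry a miRNA whose seed, near its 5′ end, pairs with a target mRNA, usually in the 3′ UTR, and the bound mRNA is repressed. Mbnl1 encodes a muscleblind protein that binds YGCY-type motifs and switches alternative exons. Rod1 encodes a relative of the polypyrimidine tract binding proteins. Son encodes a large serine- and arginine-rich protein of nuclear speckles that helps splice weak introns. Clk1 encodes a kinase that phosphorylates serine- and arginine-rich splicing factors. Zfp207 encodes BuGZ, a zinc finger protein that binds Bub3 and spindle microtubules and has also been tied to splicing. APOBEC1 is a cytidine deaminase that changes C to U in mRNA, mostly in 3′ UTRs rich in A and U.

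A 7-nt match to the seed (bases 2 to 8) of a panel of 32 miRNAs was sought in each footprint, on the transcript's strand. Such a match was present in 4 of 37 footprints (10.8%), against 21.5% of all footprints. In windows of equal length placed 50 nt to either side, 17.6% of the windows beside these footprints held a match, against 18.3% of those beside all footprints. The windows were placed along the genome, so they can hold intron or part of a neighbouring footprint. Matches were therefore not more frequent inside these footprints than beside them. The miRNAs that matched are given below, with the seed in capitals, as recorded by RefSeq (GRCm38.p6).
mmu-miR-101a-3p: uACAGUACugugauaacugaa
mmu-miR-181a-5p: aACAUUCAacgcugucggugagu
mmu-miR-142a-5p: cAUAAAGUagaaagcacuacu
mmu-miR-26a-5p: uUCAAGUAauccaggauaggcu

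The 4 matched stretches are shown 5′ to 3′ on the transcript strand of mm9, with the 7 matching bases in capitals, because they are the only places in these genes where a footprint held a full seed match of the panel. The first is miR-101 in Mbnl1 (chr3:60431843-60431866, plus strand) and the other 3 are miR-181 (chr4:59488192-59488215), miR-142-5p (chr4:59487035-59487058) and miR-26 (chr4:59486474-59486497) in Rod1, on the minus strand. The capitals lie in the footprint, while lower-case bases can reach past its edge, as in Rod1 footprints 4 and 11.
Mbnl1 footprint 5: ttgattttcctgattGTACTGTac
Rod1 footprint 4: tcttacttttttggtTGAATGTaa
Rod1 footprint 8: ttgctgagttaatctACTTTATtt
Rod1 footprint 11: atcaagcagagcattTACTTGAgt

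The 4 footprints did not move alike. Mbnl1 footprint 5 (miR-101) had an occupancy of 0.237 in KO and 0.255 in WT and was held by 2 KO and 3 WT libraries. Rod1 footprint 4 (miR-181) had 0.179 in KO and 0.389 in WT and was held by 0 KO and 2 WT libraries. Rod1 footprint 8 (miR-142-5p) had 0.285 in KO and 0.584 in WT, with 2 libraries of each genotype. Rod1 footprint 11 (miR-26) had 0.457 in KO and 0.358 in WT, with 1 KO and 2 WT libraries. The miR-181 and miR-142-5p footprints were thus over 2-fold lower in KO, and the other two differed by less. A shorter match, to bases 2 to 7, was present in 16 of the 37 footprints (43.2%), against 51.8% of all footprints. Shorter matches fell in footprints of every gene, and a pair of them is shown with the 6 matching bases in capitals: to miR-223, a miRNA of myeloid cells, in a Mbnl1 footprint held by all 6 libraries (chr3:60432939-60432962), and to miR-26 in a Son footprint held by 3 WT and 0 KO libraries (chr16:91679094-91679117). The Son footprint begins at 91679109, so most lower-case bases before its match lie outside it.
Mbnl1 footprint 9: cttccaagatctcatgACTGACaa
Son footprint 4: cattcccattaaagccACTTGAct

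No footprint of Son, Clk1 or Zfp207 held a 7-nt match of the panel. The panel does not include every miRNA, so this says nothing about other miRNAs.

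Over the 37 footprints, 12 were at least 2-fold lower in KO (32.4%), where the share of all footprints was 24.2%. Of these 12, 3 were listed at 0 in KO and were counted through the pseudocount. Listed at 0 in KO were 8.11% of the 37 and 4.63% of all footprints. Among the 34 above 0 in both genotypes, 9 were at least 2-fold lower. At least 2-fold higher in KO were 4 (10.8%), against 18.9% of all footprints. The median log2 ratio of KO over WT was -0.11 for the 37 footprints and -0.04 for all footprints, with 14 of the 37 higher and 23 lower in KO. Occupancy ran in KO from 0 to 2.46 with a median of 0.331, and in WT from 0.103 to 3.14 with a median of 0.424. All 37 were held by at least 2 WT libraries, as were 94.9% of all footprints. At least 2 KO libraries held 12 of them (32.4%), against 40.1% of all footprints. No KO library held 14 of the 37 (37.8%), against 27.9% of all footprints. Footprints held by fewer than 2 KO libraries entered the table through WT, so their KO counts are not independent of that entry. Of those 14, 11 still had a KO occupancy above 0, so the library count and the occupancy are separate records and the sources used here do not state how such values arise. Of the 34 KO values above 0, 14 were shared to the last digit with another footprint of the table, as were 8 of the 37 WT values. The share of such values over all footprints is not given here. All 6 libraries held 5 of the 37 (13.5%), against 5.89% of all footprints: 3 on Mbnl1, 1 on Rod1 and 1 on Zfp207.

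Mbnl1 (ENSMUSG00000027763.7, chr3:60277032-60433670, plus strand) had a summed occupancy of 6.56 in KO and 6.94 in WT (log2 ratio -0.08). Of the 9 footprints, 8 lay in its 3′ UTR of 3387 nt, and footprint 1 crossed the stop codon, with 54 nt of coding sequence and 9 nt of this 3′ UTR. The strongest, footprint 7 (chr3:60432126-60432193), had 2.46 in KO and 1.95 in WT, was held by 3 KO and 2 WT libraries, and had the lowest G+C content of the 37 at 20.6%. Mbnl1 was also the gene of the 5 whose footprints KO libraries held most often, with 7 of 9 in at least 2 KO libraries. The footprints held by all 6 libraries went different ways. Footprint 3 (chr3:60430894-60430960), which began 611 nt after the stop codon, had 0.304 in KO and 1.09 in WT, a 3.57-fold lower occupancy in KO. Footprint 1 (chr3:60429044-60429111) had 0.756 in KO and 0.887 in WT, and footprint 9 (chr3:60432933-60433007) had 0.889 in KO and 0.549 in WT. Footprint 3 was the one Mbnl1 footprint past 2-fold.

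Position split the Mbnl1 footprints. The 6 that lay before the end of the shortest annotated transcript with this stop codon, 1839 nt after it, were all lower in KO, with log2 ratios from -1.83 to -0.11. Their occupancy summed to 2.58 in KO and 4.02 in WT. The 3 beyond that end were all higher in KO, with log2 ratios from 0.34 to 0.69, and summed to 3.97 in KO and 2.92 in WT. This split was noticed after the values were seen, and 8 of the 9 ratios are under 2-fold. No KO library held footprint 4, with 0.0557 in KO and 0.103 in WT, or footprint 6, with 0.605 in KO and 0.905 in WT. Footprint 2 had 0.626 in KO and 0.782 in WT, and footprint 8 had 0.619 in KO and 0.424 in WT.

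Rod1 (ENSMUSG00000028382.8, chr4:59484740-59562236, minus strand) ranked 8th of 2222 genes by number of footprints. Its 16 footprints covered 25.3% of a 3′ UTR of 4835 nt, with gaps of 11 to 617 nt between neighbours. The 16 occupancies summed to 5.88 in KO and 6.67 in WT (log2 ratio -0.18). This near balance covered footprints that went both ways, with 5 at least 2-fold lower (31.2%) and 2 at least 2-fold higher in KO (12.5%). Over all footprints these shares were 24.2% and 18.9%, so footprints past 2-fold are not particular to Rod1. The lowest ratios were those of footprint 12 (chr4:59486182-59486247), with 0.231 in KO and 0.903 in WT, and footprint 16 (chr4:59484947-59485036), with 0.145 in KO and 0.564 in WT. Footprints 4 and 8, the miR-181 and miR-142-5p ones, followed, as did footprint 6 with 0.136 in KO and 0.303 in WT. The KO values of these 5 lower footprints were all shared to the last digit with other footprints. So were the WT values of footprints 4, 6 and 16. The highest ratios were those of footprint 15 (chr4:59485148-59485237), with 0.437 in KO and 0.131 in WT, and footprint 10, with 0.344 in KO and 0.133 in WT. Footprint 15 thus stood 3.32-fold higher and its neighbour 16, 111 nt downstream, 3.9-fold lower in KO.

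The strongest Rod1 footprint, 14 (chr4:59485508-59485574), was also the one held by all 6 libraries. It had 1.02 in KO and 0.91 in WT (log2 ratio 0.17). The remaining 7 footprints, apart from the miR-26 one, lay between log2 ratios of -0.21 and 0.65. Library support was thin in KO, with 3 footprints in at least 2 KO libraries (18.8%) and 6 in none (37.5%). Over all footprints these shares were 40.1% and 27.9%. Entry into the table through WT shapes such low KO counts. Of the 7 footprints past 2-fold, footprint 8 was the one held by at least 2 libraries of both genotypes, at 2.05-fold lower. By position, 4 Rod1 footprints ended before the end of the shorter annotated 3′ UTR of 1624 nt. All of these were lower in KO, with sums of 1.46 in KO and 1.78 in WT. Among them, footprint 1 crossed the stop codon, with 26 nt of coding sequence and 46 nt of 3′ UTR. Footprint 5 straddled the end of the shorter 3′ UTR and was higher in KO, with 0.718 in KO and 0.487 in WT. Of the 11 beyond that end, 6 were higher and 5 lower, with sums of 3.7 in KO and 4.4 in WT.

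**Figure D1:**
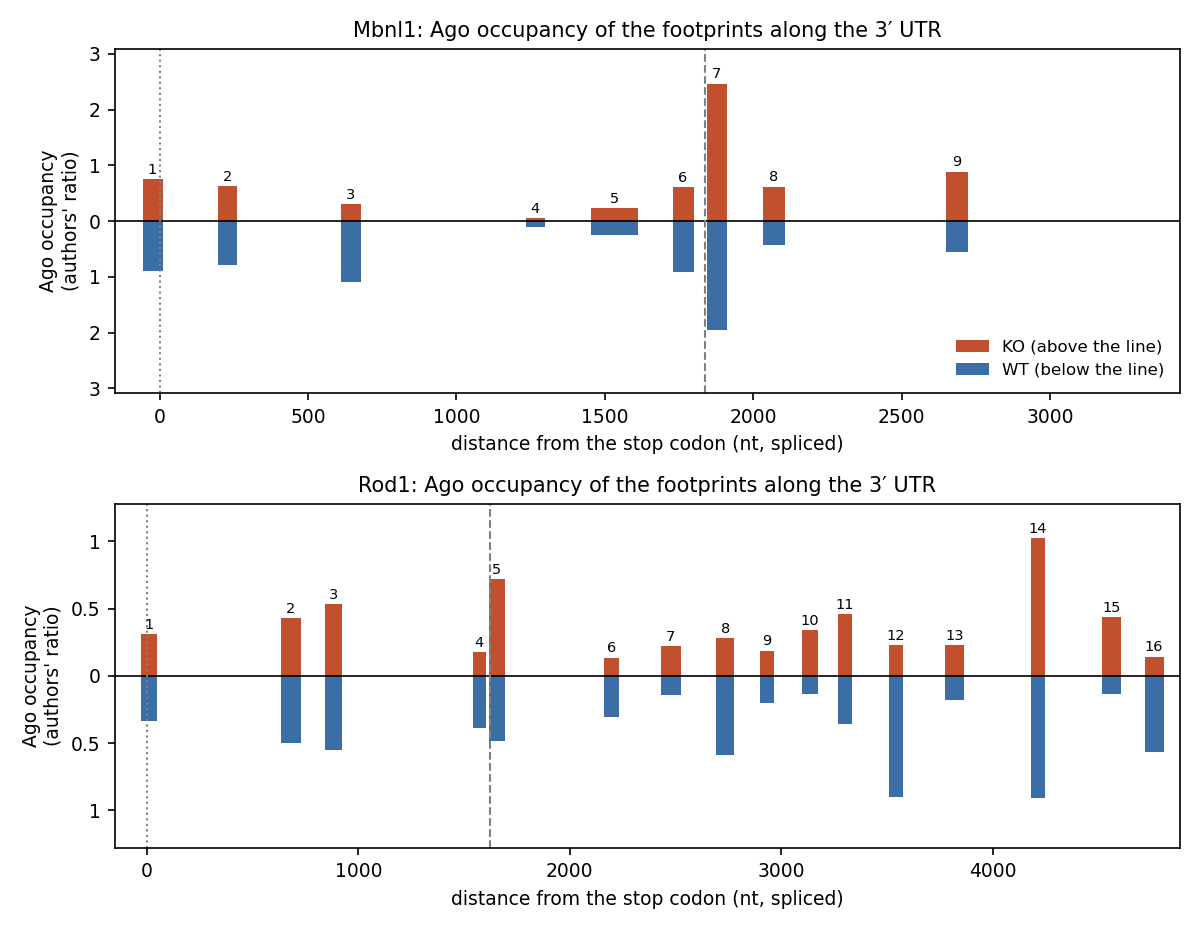
Ago occupancy (authors' ratio, y axis) of the 9 Mbnl1 and 16 Rod1 footprints against the distance from the stop codon in nt of spliced transcript (x axis), with KO above and WT below the line; each bar is 1 combined value and its width is the footprint. The dotted line marks the stop codon and the dashed line the end of the shorter annotated 3′ UTR, at 1839 nt in Mbnl1 and 1624 nt in Rod1. Mbnl1 bars are lower in KO left of the dashed line and higher in KO right of it, and the Rod1 bars right of it go both ways.

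Son (ENSMUSG00000022961.10, chr16:91647751-91679466, plus strand) summed to 1.3 in KO and 2.26 in WT (log2 ratio -0.80). The sum hid opposite values in 2 transcript ends. The 3 footprints in the 3′ UTR of the long transcripts, 895 nt in length, summed to 0.0654 in KO and 2.05 in WT, and no KO library held any of them. Footprint 3 (chr16:91678655-91678721) had 0.0654 in KO and 1.23 in WT and was held by 3 WT libraries. Footprint 2 (chr16:91678554-91678630) was listed at 0 in KO, with 0.257 in WT and 2 WT libraries. Footprint 4 (chr16:91679109-91679198), the one with the miR-26 match to bases 2 to 7, was listed at 0 in KO, with 0.559 in WT and 3 WT libraries. All 3 were therefore held by WT libraries alone, through which they entered the table. A listed 0 with an unknown depth does not show that Ago was absent.

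Footprint 1 of Son (chr16:91662802-91662880) lay upstream, in the 3′ UTR of 2 short annotated transcripts that end upstream of the long transcripts' last exon. It had 1.23 in KO and 0.218 in WT (log2 ratio 2.49), the highest of the 37 footprints. It made up 95% of the Son sum in KO. It was held by 1 KO and 2 WT libraries and had a G+C content of 49.4%, against 26%, 32.8% and 40% in the long transcripts' footprints. The sources used here do not state which transcript's expression served as the divisor for either end.

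Clk1 (ENSMUSG00000026034.10, chr1:58467033-58480910, minus strand) differed from the other genes described here in where its listed footprints lay. All 4 of its footprints overlapped coding exons, 3, 7, 8 and 11 of 13, and none lay in its 3′ UTR of 197 nt. In the transcript used, 51 of the 64 nt of footprint 3 and 70 of the 75 nt of footprint 4 were exonic. The table held 34 footprints of this coding class (0.542%), on 23 genes, and only Atp2a2, with 5, had more than Clk1. It was deposited as a table of 3′ UTR occupancy, and 6063 of its 6270 footprints were classed as 3′ UTR. The coding share therefore does not measure how often Ago is found in coding sequence. The sum was 1.14 in KO and 1.88 in WT (log2 ratio -0.71). Footprint 2, in exon 7 (chr1:58473912-58474006), was listed at 0 in KO and had 0.696 in WT, with 0 KO and 2 WT libraries. Exon 7 is absent from 1 of the 7 annotated transcripts that span it. The other 3 footprints were each less than 2-fold apart. Footprint 3, in exon 8 (chr1:58471478-58471541), was the strongest, with 0.66 in KO and 0.783 in WT. Footprint 1, in exon 3 (chr1:58477964-58478063), had 0.342 in KO and 0.246 in WT, and footprint 4, in exon 11 (chr1:58469801-58469875), had 0.141 in KO and 0.15 in WT. Without footprint 2 the gene was near equal, at a log2 ratio of -0.05. No Clk1 footprint was held by more than 1 KO library or by 3 WT libraries.

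Zfp207 (ENSMUSG00000017421.10, chr11:80196781-80219235, plus strand) was the only one of the 5 genes past 2-fold in its sum, with 1.84 in KO and 4.11 in WT, 2.23-fold lower in KO. Of all 2222 genes with a footprint, 17.9% were at least 2-fold lower and 11.7% at least 2-fold higher in KO. The value rested on footprint 2 (chr11:80209102-80209176), 50 nt after the stop codon, with 0.786 in KO and 3.14 in WT. It was held by all 6 libraries and was 3.99-fold lower in KO. Without it, the other 3 summed to 1.05 in KO and 0.972 in WT, so the direction of the gene turned. Footprint 3 (chr11:80209366-80209428) had 0.132 in KO and 0.42 in WT, with 0 KO and 2 WT libraries. Footprint 1 (chr11:80208977-80209084), which crosses the stop codon, had 0.331 in KO and 0.163 in WT, at 2.03-fold just past the mark, with 1 KO and 2 WT libraries. Footprint 4 (chr11:80209531-80209601) had 0.59 in KO and 0.39 in WT, with 2 libraries of each genotype. Within a 3′ UTR of 695 nt, footprints 2 and 3 were thus lower and footprint 4 higher in KO.

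**Figure D2:**
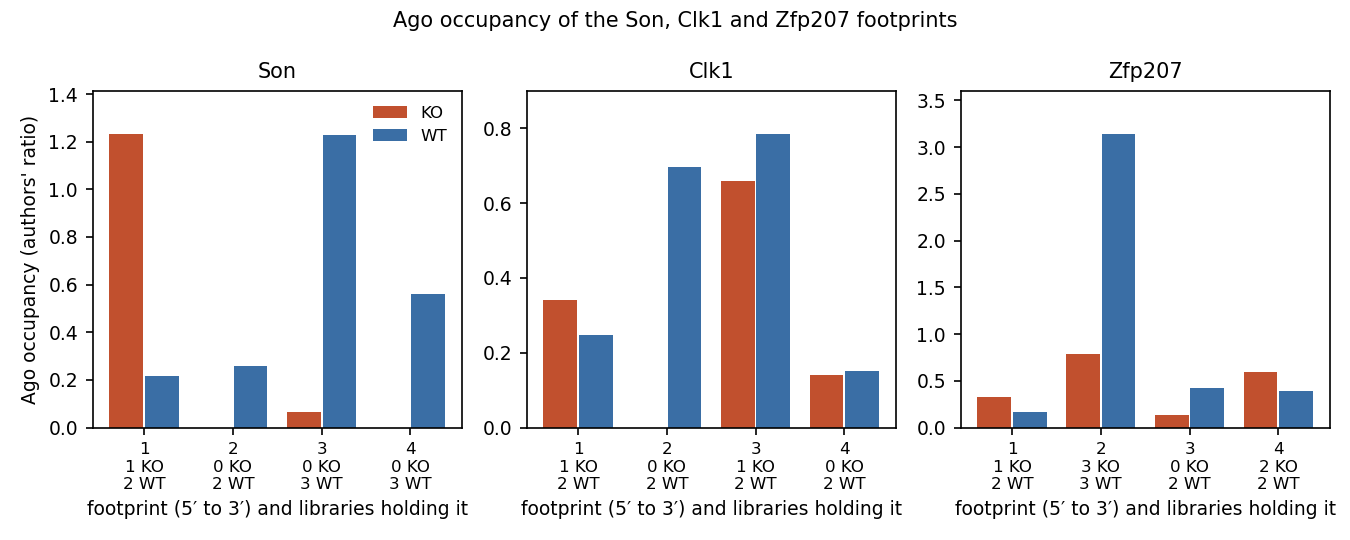
Ago occupancy (authors' ratio, y axis) of the 4 footprints each of Son, Clk1 and Zfp207 (x axis, 5′ to 3′), with KO left of WT and the number of libraries that held each footprint under its number; each bar is 1 combined value. Son footprints 2 and 4 and Clk1 footprint 2 have no KO bar because they are listed at 0, and Zfp207 footprint 2 stands at 0.786 in KO and 3.14 in WT.

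Zfp207 footprint 2 and Mbnl1 footprint 3 shared the fullest library support. Of the 369 footprints held by all 6 libraries, 16 were at least 2-fold lower in KO and 25 at least 2-fold higher, and these 2 were among the 16. Of the 12 footprints of the 5 genes held by at least 2 libraries of both genotypes, 3 were at least 2-fold lower and none was at least 2-fold higher in KO, and the median log2 ratio was 0.03. Of the 2196 footprints of the table with that support, 110 (5.01%) were at least 2-fold lower and 575 (26.2%) at least 2-fold higher, with a median of 0.42. This filter uses KO libraries and so is not independent of KO occupancy.

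Base composition moved with the ratio. The 37 footprints had a median G+C content of 34.7%, against 42.9% for all footprints. Over all footprints, which share the same libraries, Spearman's rho of G+C content and log2 ratio was 0.325 (n = 6270), and over the 37 it was 0.245. Of the 2058 footprints with a G+C content from 30.6% to 40.8%, the quartiles of the 37, 32.2% were at least 2-fold lower and 11.1% at least 2-fold higher in KO, with a median log2 ratio of -0.36. For all 37 footprints these shares were 32.4% and 10.8%, with a median log2 ratio of -0.11. Only 19 of the 37 lay inside this G+C range, so these are unlike sets. All 4 footprints at least 2-fold higher in KO lay outside it, with G+C contents of 28.9%, 48.6%, 49.4% and 50%. Of the 12 at least 2-fold lower, only Rod1 footprint 4, Son footprint 2 and Clk1 footprint 2 lay outside it. The part of base composition in the KO and WT values was not tested.

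**Figure D3:**
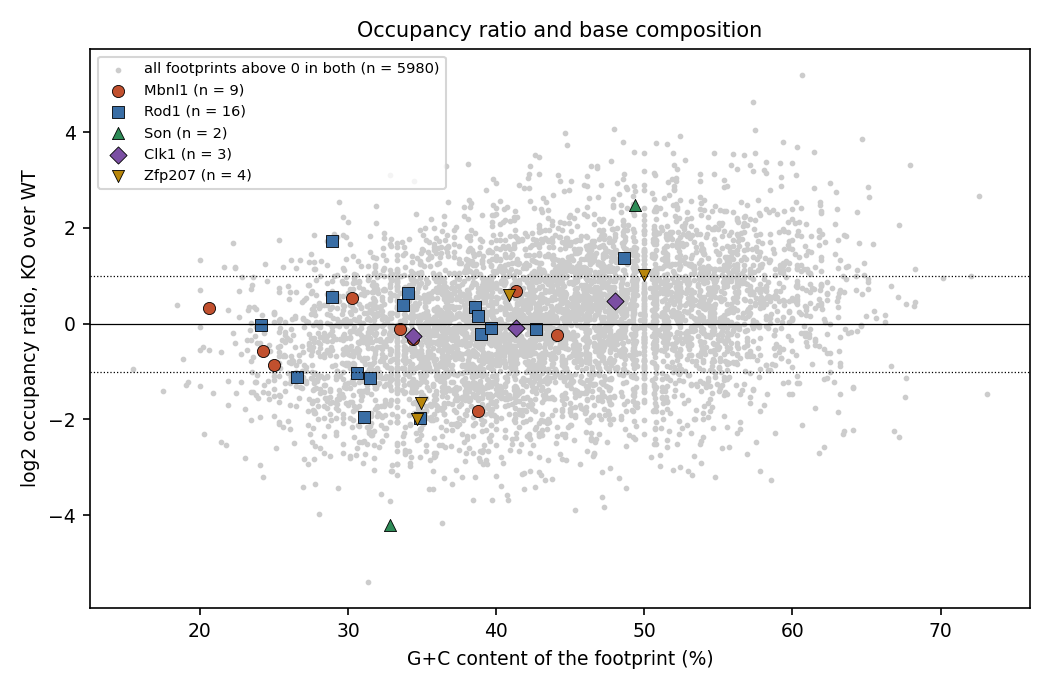
Log2 ratio of Ago occupancy, KO over WT (y axis), against the G+C content of the footprint in percent (x axis) for the footprints above 0 in both genotypes; grey points are all 5980 such footprints and coloured symbols those of the 5 genes, with dotted lines at 2-fold. The coloured symbols lie mostly in the left part of the grey cloud, where more points fall under the lower line, and Son has a symbol at each extreme, at 2.49 and -4.20.

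The lengths of the footprints, 63 to 161 nt with a median of 75, compare with a median of 72 for all footprints. The occupancies of the 2 genotypes were less alike in rank over the 37 footprints (Spearman's rho 0.313) than over all footprints (0.612), as a description. Short motifs were counted on the transcript strand alone. TGCT, a motif of the muscleblind proteins that also lies within the sites of miR-15/16, miR-29 and miR-103, was in 29.7% of the 37 footprints, against 38.4% of all, and in 4 of 9 on Mbnl1. TCTT, a motif of the polypyrimidine tract binding proteins, was in 29.7%, against 35% of all, and in 6 of 16 on Rod1. AATAAA, the sequence of the poly(A) signal, was in 2 of 37 (5.41%), against 7% of all. These were Clk1 footprint 3, at a coding exon, and Zfp207 footprint 3, in a 3′ UTR. The AU-rich element TATTTAT, in 1.8% of all footprints, and the mooring motif of APOBEC1 editing, in 0.335%, were in none of the 37, which says only that these letters are not in these windows.

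Among the genes with at least 3 footprints (759), those nearest in summed KO and WT occupancy on the log2 scale, 2 values per gene, were found for each gene. They were Tor1aip2, Il7r and Ddx58 for Mbnl1. For Rod1 they were Hipk1, Id2 and Magt1, and for Son they included Cds2 and Slc31a1. For Clk1 they were Tmx3, Cxcr4 and Ccl9, and for Zfp207 they were Gabpb2, Tgoln1 and Rhoq. The distances ran from 0.040 (Cds2) to 0.169 (Rhoq), so that sums like those of the 5 genes were found on other genes.

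The 5 genes were set beside a list of other splicing regulators. Of 105 other symbols, 48 had a footprint, 154 footprints in all. By summed occupancy 14 of the 48 (29.2%) were at least 2-fold lower and 3 (6.25%) at least 2-fold higher in KO, against 17.9% and 11.7% of all genes, with 13 higher and 35 lower in all and a median log2 ratio of -0.38, against -0.04 for all genes. Their median G+C content was 39.6%, against 43.4% for all genes, which the G+C relation above also touches, and its part was not tested. The close relatives were less than 2-fold apart in their sums: Mbnl2, the second muscleblind gene, had 4.04 in KO and 4.99 in WT over 8 footprints, and Ptbp1, the relative of Rod1, had 0.623 in KO and 0.538 in WT over 2. Their footprints went both ways. On Mbnl2, 3 were at least 2-fold lower and 2 at least 2-fold higher in KO, and on Ptbp1 1 each way. Over all footprints the shares were 24.2% and 18.9%.

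The 4 lowest genes of the list above 0 in both genotypes were of the hnRNP and Tra2 families. Hnrnpl had 0.0512 in KO and 0.207 in WT, and Tra2b, which encodes an activator of exon inclusion, had 0.708 in KO and 2.72 in WT. Hnrnpab had 0.56 in KO and 2.08 in WT over 4 footprints, and Hnrnph1 had 0.0703 in KO and 0.26 in WT. Of these only Hnrnpab had a footprint held by at least 2 KO libraries. At the other end, Rbm25 had 1.92 in KO and 0.713 in WT, Sf3b3, a core component of the U2 particle, had 0.617 in KO and 0.306 in WT, and Srsf9 had 0.28 in KO and 0.142 in WT. Each of these rested on 1 footprint. At least 2 KO libraries held that of Rbm25, fewer that of Sf3b3 and none that of Srsf9. Acin1 and Khdrbs1 were listed at 0 in KO, with 0.931 and 0.19 in WT. When only footprints held by at least 2 libraries of both genotypes were used, 21 genes of the list remained, of which 0 were at least 2-fold lower and 6 at least 2-fold higher in KO. Under this filter 3.56% of all 1096 genes left were at least 2-fold lower and 20.8% at least 2-fold higher, so the whole table shifted upwards with it.

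**Figure D4:**
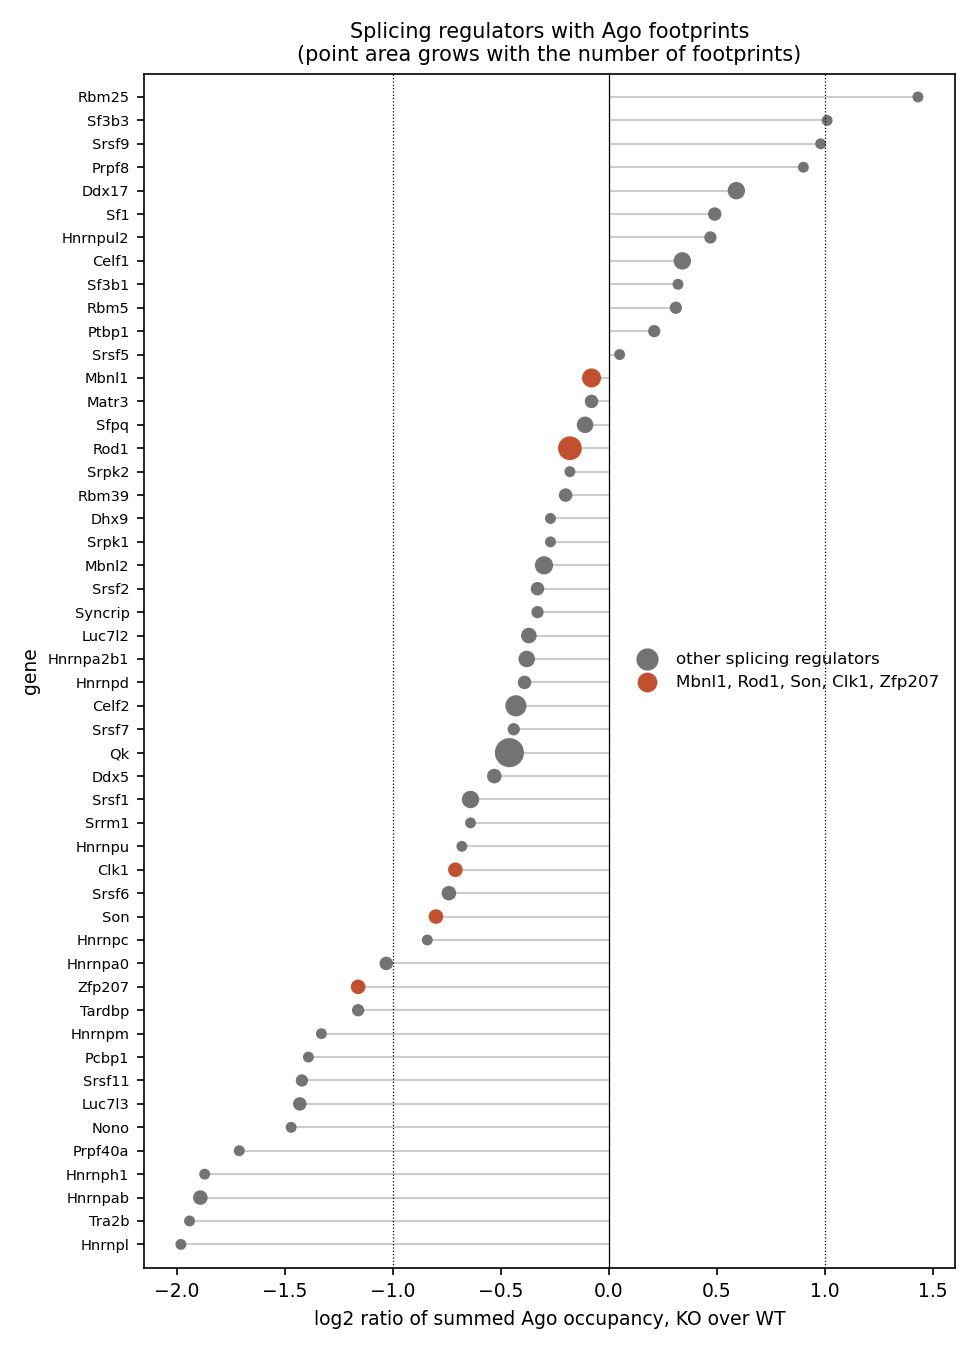
Log2 ratio of summed Ago occupancy, KO over WT (x axis), of the splicing regulators with a footprint above 0 in both genotypes (y axis, 1 line per gene, highest ratio on top, genes not reported here left out); the area of a point grows with the gene's number of footprints and dotted lines mark 2-fold. Mbnl1 (-0.08) and Rod1 (-0.18) lie above the middle of the ranking, and Clk1 (-0.71), Son (-0.80) and Zfp207 (-1.16) lie below them.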

How the data were processed

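Per the series design text, the authors aligned reads to mm9, split them by length into mRNA and miRNA pools, joined overlapping mRNA reads into clusters and took a footprint around each peak. The submitters' processing notes name Bowtie 0.12.8, and also bedtools without a version. The deposited occupancy is a ratio of footprint signal to RNA-Seq expression of the transcript, with 1 value per genotype. The sources used here do not state how libraries were combined and scaled. The other deposited values are the number of libraries that held a footprint.

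Footprints were placed on NCBIM37 (the mm9 assembly) with GENCODE vM1, by strand, taking the first class overlapped with the 3′ UTR ahead of coding sequence, then the 5′ UTR, then any other exon and last introns. Coordinates are mm9 and counted from 1. Distances from the stop codon are in spliced transcript. Log2 ratios used a pseudocount of 0.00161, 50% of the smallest value above 0, and gene values are sums over footprints. No fold is given for a single value listed at 0, which enters medians and the counts at 2-fold through the pseudocount. Seed matches used 32 of 33 miRNAs (29 seeds), since 1 had no sequence. Counting was tested on simulated data. Python 3.11.15, pandas 2.3.3, pysam 0.24.0 and samtools were used.

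The genes, the lists and the alternatives were chosen with earlier results of these data known. The rule for naming took, per gene, the footprints of highest mean occupancy, of highest and lowest ratio and those in all 6 libraries, and from the splicing list the 4 highest and 4 lowest genes. A few genes that these rules name are not reported here. No test was made.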

Additional observations from a re-analysis of the deposited data

How the results depend on the processing

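Of 81 alternative values, 56 stayed within the limits set for them (1.5-fold for a ratio or count) and 25 did not. Of the 59 log2 values among them, 11 had the other sign than the main value. For Mbnl1 (0.34 by its strongest footprint), Rod1 (0.03 to 0.17 by its strongest footprint and under both library filters) and the medians over footprints, these stayed within 1.5-fold. Zfp207 turned to 0.12 without its strongest footprint, and was -1.99 by that footprint alone or with support from all 6 libraries, and -0.53 by the median footprint. Son turned to 2.49 by its strongest footprint, and was -4.93 without it, -5.77 by the median footprint (a value set by the pseudocount, since it averages in a footprint listed at 0 in KO, and no bound), and -0.16 with footprints above 0 in both genotypes or of at least median occupancy. Clk1 was -0.05 with footprints above 0 in both. The 12 footprints at least 2-fold lower became 2 with a pseudocount of 1, 5 at median occupancy or above, 3 with 2 libraries of both genotypes and 2 with all 6. The 4 higher became 2 with a pseudocount of 0.1, 0 with 1, 1 at median occupancy or above, and 0 under both library filters. The share with a seed match was 43.2% for 6-nt matches. Of the other splicing regulators, the 14 lower became 2 with a pseudocount of 1 and 0 with 2 libraries of both genotypes. The 3 higher became 6 by the strongest footprint, 1 with a pseudocount of 1 and 6 with 2 libraries of both. A larger pseudocount shrinks ratios of low values and a filter leaves fewer footprints; beyond that, the cause was not tested.

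Son and Clk1 gave no value under either library filter, and Clk1 none in a 3′ UTR. No paired analysis was possible because the table holds 1 combined value per genotype. For the same reason no replicate was left out in turn. Depth is unknown.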
